A study of Mus musculus with 8 samples.

Results

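Cyclic AMP is a second messenger that restrains T cell activation, and regulatory T cells (Tregs) are known for holding much of it. It is made by adenylyl cyclases when hormones, prostaglandins or adenosine act on receptors coupled to the stimulatory G protein, and it is broken down by phosphodiesterases. Its main effector is protein kinase A (PKA), which phosphorylates CREB and related transcription factors. In mouse Tregs the lineage factor Foxp3 is known to repress Pde3b, which encodes a phosphodiesterase.

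The 10 genes described here were chosen by symbol as cyclic AMP phosphodiesterases (Pde3b, Pde4a, Pde4b, Pde4d, Pde7a and Pde8a), a cyclase (Adcy7), a catalytic subunit of PKA (Prkaca) and the transcription factors Creb1 and Crem. All 10 were found among the 21524 gene symbols of the deposited table. Total RNA came from Tregs that were flow-sorted from mouse spleen, with 4 libraries labelled IL-2 (numbers 41 to 44) and 4 labelled control (numbers 45 to 48). In the wider study a mutein of IL-2 was given with CTLA-4 Ig, a blocker of co-stimulation, to C57BL/6 recipients of BALB/c hearts or kidneys. For these libraries, the labels do not say whether IL-2 means that molecule, what the controls received, or whether animals carried a graft or received CTLA-4 Ig. They give no age or sex, and do not say whether each library is 1 animal, so p-values measure the spread between libraries.

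Values below are normalised reads, recovered from the deposited log2 variance-stabilised values and given for each library and then as mean ± SD over the 4 libraries of a group. The depth, estimated from them, was 4953547 to 6399418 reads in IL-2 libraries and 4970820 to 6147506 in control libraries. The main test was limma on the deposited values for the 5261 genes that lay at least 1 above the lowest value of the table (about 206 reads) in at least 4 libraries. This scale is compressed for genes with few reads, so its differences understate fold changes. A second limma fit used log2(normalised reads + 5) for the 10777 genes with at least 10 reads in at least 4 libraries. Differences are IL-2 minus control, and adjusted p-values are by the Benjamini-Hochberg method over all genes tested, with 0.05 as the threshold. Of the Treg and CD4 T cell markers, all 8 were tested, of which Il2ra and Tnfrsf18 rose and Cd4 fell. The summed reads of the 8 were 42658 to 48124 in IL-2 libraries and 33888 to 35281 in control libraries. The higher sum rests on Il2ra, which had 18107 ± 1601 reads with IL-2, against 6935 ± 781 in controls. The sum was therefore not read as a measure of Treg content. Foxp3 had 1643 to 2235 reads in IL-2 libraries and 1123 to 1799 in control libraries. The Y-linked transcript Ddx3y was at 0 reads in IL-2 libraries 41 and 42 and control library 45, and at 216 to 460.5 in the other 5. Its presence was therefore also fitted as a covariate.

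The transcripts of 4 phosphodiesterase genes, Pde3b, Pde4b, Pde4d and Pde7a, fell with IL-2, by 2.25-fold to 4.18-fold in mean reads (the fold of Pde3b was 6.57 without IL-2 library 42). Creb1 was 1.28-fold lower and Crem 1.51-fold higher, and both calls were lost in several alternatives. Pde4a, Pde8a, Adcy7 and Prkaca did not pass the test. On log2 reads all 10 genes were tested, of which 5 fell and 1 rose, where 9.07% of all genes fell and 10.9% rose. The 5 include Pde3b, which passed the filter on reads through 4 control and 2 IL-2 libraries. For Pde3b that filter thus leaned on the group where it was high. In the main fit 6 of the 10 were tested and 4 fell (Pde4b, Pde4d, Pde7a and Creb1), where 14.6% of all genes fell, and 0 rose, where 16.8% did. Pde4d and Pde7a passed the main filter through the control libraries alone and had to differ there, so that count was not read as a result. The median difference of the 10 genes on log2 reads was -0.23, where that of all tested genes was -0.01. Of the 10 genes, 4 had IL-2 libraries wholly below the controls (10.9% of the 10777 genes) and 2 wholly above (13.0%), together 23.9% of the genes on log2 reads; among the 5261 genes of the main fit 31.5% did not overlap.

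**Figure D1:**
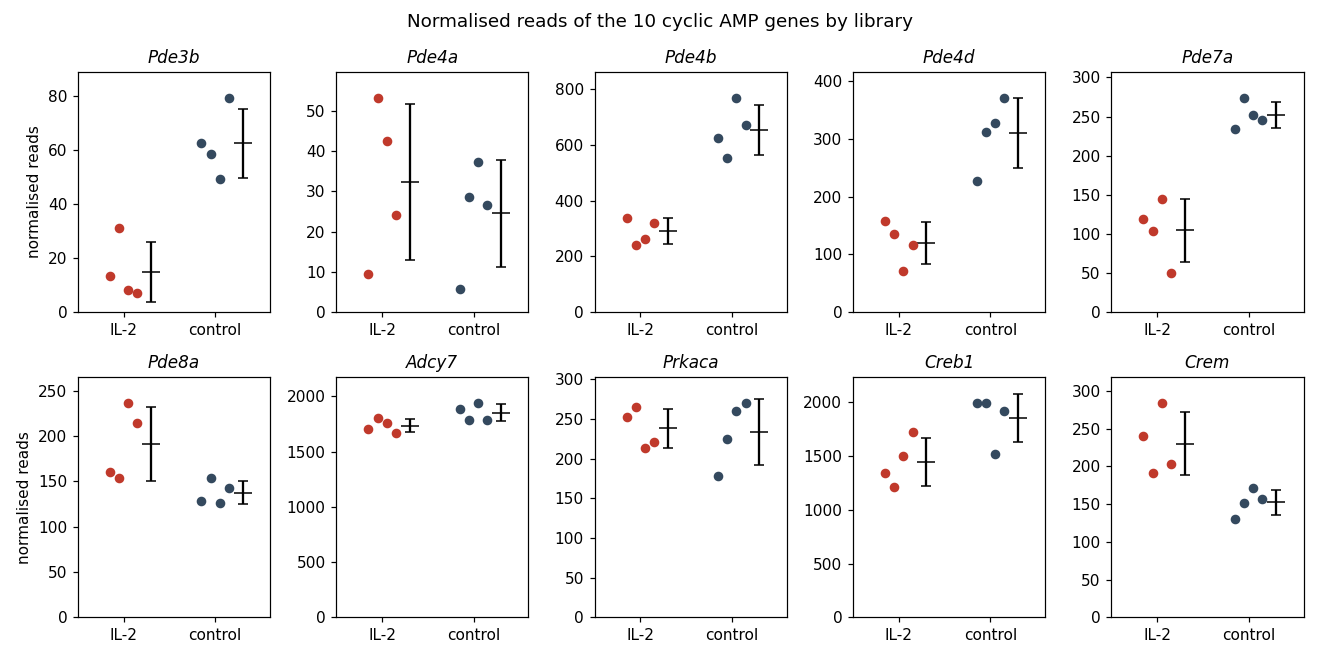
Normalised reads (vertical axis, from 0) of each of the 10 genes in the 4 IL-2 libraries (red) and the 4 control libraries (dark blue), with the mean and SD in black. The IL-2 points of Pde3b, Pde4b, Pde4d and Pde7a all lie below the control points, and those of Crem and Pde8a all lie above.

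Sequences upstream of transcription starts are shown for Pde4b and Pde4d, the close relatives among the genes that fell. RefSeq promoter windows (GRCm38.p6) matched 7 of the 10 genes, in 15 windows; Pde3b, Pde7a and Crem had no entry. Each window holds the 250 bases before a start. The motifs searched on both strands were the full cyclic AMP response element TGACGTCA, its core TGACG, the forkhead motif TGTTTAC and the STAT motif TTCNNNGAA. The full element contains the core. Capitals mark matches: CGTCA in Pde4b start 1 is the core read on the other strand, and the 9 capitals in Pde4b start 2 match the STAT motif. The Pde4d window holds no match. Pde4b has 4 windows, of which starts 1 and 2 are shown for their matches; starts 3 and 4 hold none of the motifs and are not shown.
Pde4b start 1 (chr4:102421305-102421554, + strand): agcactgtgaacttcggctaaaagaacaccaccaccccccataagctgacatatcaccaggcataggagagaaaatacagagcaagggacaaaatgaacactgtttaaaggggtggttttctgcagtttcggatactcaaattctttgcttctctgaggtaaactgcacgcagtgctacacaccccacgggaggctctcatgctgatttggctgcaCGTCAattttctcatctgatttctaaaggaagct
Pde4b start 2 (chr4:102569810-102570059, + strand): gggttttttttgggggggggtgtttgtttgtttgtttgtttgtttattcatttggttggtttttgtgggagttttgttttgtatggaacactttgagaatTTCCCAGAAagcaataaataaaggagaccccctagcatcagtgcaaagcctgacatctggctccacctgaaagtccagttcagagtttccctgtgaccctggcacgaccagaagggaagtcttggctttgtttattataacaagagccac
Pde4d start 1 (chr13:108653927-108654176, + strand): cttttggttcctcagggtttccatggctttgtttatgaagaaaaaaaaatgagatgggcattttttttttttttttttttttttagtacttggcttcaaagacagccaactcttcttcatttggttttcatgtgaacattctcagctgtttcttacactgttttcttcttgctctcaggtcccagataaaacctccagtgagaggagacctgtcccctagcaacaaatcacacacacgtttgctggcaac

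The full element was in 0 of the 15 windows and in 1.55% of all 32851 windows. The core was in 5 of the 15, in 1 window each of Pde4a, Pde4b, Pde8a, Adcy7 and Prkaca, and in 17.8% of all windows. The forkhead motif was in 0 of the 15 (3.17% of all windows). The STAT motif was in 2, of Pde4b and Adcy7 (7.02% of all windows). The only Creb1 window matched none of the motifs. These are matches of letters and do not show binding.

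Pde4b encodes a cyclic AMP-specific phosphodiesterase of the rolipram-sensitive PDE4 family, which is prominent in immune cells. It had 339, 240.3, 264 and 318 normalised reads in IL-2 libraries 41 to 44, against 624, 554, 769 and 669 in control libraries 45 to 48. Every IL-2 library lay far below every control library. The means were 290.3 ± 45.9 with IL-2, against 654 ± 90.1 in controls, 2.25-fold lower (limma difference -0.54 ± 0.07 SE on the deposited scale, adjusted p = 7.25e-05). On log2 reads the difference was -1.16 (adjusted p = 1.47e-04).

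Pde4d encodes another PDE4 enzyme, known for its many isoforms, which gene-level values do not separate. Its normalised reads were 158, 135, 71.5 and 115 in the IL-2 libraries, against 227, 312, 328 and 371 in the control libraries. The groups did not overlap; IL-2 library 43 was the lowest of the 8 and control library 45 the lowest of the controls. Mean reads were 119.9 ± 36.6 with IL-2, against 309 ± 60.3 in controls, 2.58-fold lower (limma difference on log2 reads -1.36 ± 0.24 SE, adjusted p = 0.00184).

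Pde4a, the other PDE4 gene of the set, was sparse. Its normalised reads were 9.55, 53.2, 42.4 and 24.2 with IL-2, against 5.81, 28.5, 37.2 and 26.5 in controls. The groups overlapped in part: IL-2 libraries 42 and 43 lay above every control and control library 45 below every IL-2 library, with coefficients of variation of 59.8% with IL-2, against 54.3% in controls. The limma difference on log2 reads was 0.32 with a 95% interval of -0.84 to 1.48 (adjusted p = 0.729). Without control library 45 the difference was -0.11.

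Pde7a encodes a high-affinity cyclic AMP-specific phosphodiesterase that is expressed in T cells. There were 119, 104, 145 and 50.5 normalised reads in the IL-2 libraries and 234, 274, 252 and 246 in the control libraries. The controls were close together (coefficient of variation 6.68%), while the IL-2 libraries varied more (38.2%) and library 44 was the lowest. Pde7a averaged 105 ± 39.9 reads with IL-2, against 252 ± 16.8 in controls, 2.40-fold lower (limma difference on log2 reads -1.32 ± 0.27 SE, adjusted p = 0.00444). Leaving out IL-2 library 44 gave -1.02 (adjusted p = 0.00231).

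Pde3b, whose product is a phosphodiesterase inhibited by cyclic GMP, had few reads. It stood at 13.3, 31.2, 8.12 and 7.13 normalised reads with IL-2, against 62.7, 58.6, 49.1 and 79.4 in controls. The highest IL-2 library, 42, was still below the lowest control, 47. The means were 14.9 ± 11.2 with IL-2, against 62.4 ± 12.7 in controls, 4.18-fold lower (limma difference on log2 reads -1.89 ± 0.39 SE, adjusted p = 0.00494). Without IL-2 library 42 the IL-2 mean was 9.51 and the fold 6.57. Pde3b was too low for the main filter, and it passed the filter on reads through 4 control and 2 IL-2 libraries. That filter thus leaned on the group where Pde3b was high. The two-sided exact permutation test over 70 splits gave p = 0.0286, the smallest that 4 against 4 libraries allow.

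Pde8a encodes a cyclic AMP-specific enzyme of very high affinity. It had 161, 153, 236 and 214 normalised reads with IL-2, against 128, 153, 126 and 143 in controls. The groups touched without overlapping, since the lowest IL-2 library held 153.4 reads and the highest control 153.2. The means were 191 ± 40.5 with IL-2, against 138 ± 12.7 in controls. Pde8a did not pass (limma difference on log2 reads 0.44, 95% interval before adjustment 0.03 to 0.85, adjusted p = 0.124; exact permutation p = 0.0286).

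**Figure D2:**
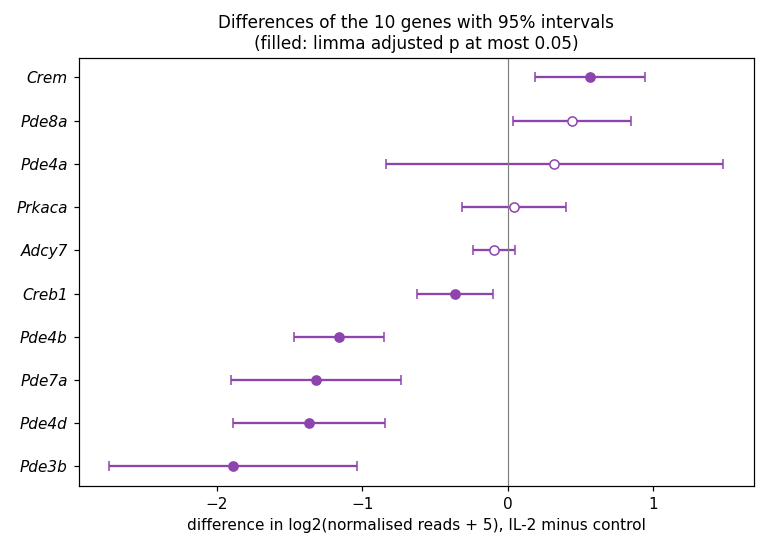
Difference in log2(normalised reads + 5), IL-2 minus control (horizontal axis), for the 10 genes, with 95% intervals before adjustment from limma; filled points have an adjusted p of at most 0.05. Pde3b, Pde4d, Pde7a and Pde4b lie between -1.89 and -1.16, and Crem lies at 0.57.

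Some markers of other cell types were also lower with IL-2. The summed reads of 8 B cell markers were 121 to 241 in IL-2 libraries and 489 to 606 in control libraries. Cd74, the invariant chain of MHC class II, had 88.5 ± 40.1 reads with IL-2, against 396 ± 35.4 in controls. The B cell markers Cd79a, Ms4a1, Ebf1 and Pax5 were under 10 reads in every library. For 8 markers of monocytes, macrophages and dendritic cells the sums were 1002 to 1251 in IL-2 libraries and 1835 to 2074 in control libraries, of which the protease gene Ctss held the largest part, and Itgax and Adgre1 were under 10 reads in every library. Of those with too few reads to test, Lyz2 had 0 reads in IL-2 libraries and 5.55 to 14.5 in control libraries. Adgre1 had 0 to 2.32 and 2.72 to 7.80, while the groups of Csf1r, Itgax and Fcer1g overlapped. For 6 markers of CD8 T and NK cells the sums were 58.7 to 128 in IL-2 libraries and 125 to 243 in control libraries, with Ncr1 and Klrk1 under 10 reads in every library. The 6 erythroid and platelet markers summed to 0 to 28.2 and 0.927 to 58.7. By limma on log2 reads, Cd74 and Cd22 fell of the 3 B cell markers tested, while Cd79b stood at 60.1 ± 31.1 reads with IL-2, against 42.0 ± 14.1 in controls (adjusted p = 0.636). Of the 3 tested markers of monocytes, macrophages and dendritic cells Ctss fell, while Cst3 stood at 199.6 ± 12.8 with IL-2, against 195.1 ± 23.0 in controls, and Itgam at 63.4 ± 35.9 with IL-2, against 64.4 ± 25.5 in controls (limma adjusted p = 0.904 and 0.948). Of the 4 tested markers of CD8 T and NK cells, Cd8b1 stood at 65.0 ± 12.2 with IL-2, against 67.8 ± 22.8 in controls (limma adjusted p = 0.983) and Cd8a at 10.03 ± 8.12 with IL-2, against 15.6 ± 3.63 in controls (limma adjusted p = 0.416). The other two, Klrb1c (2.90 ± 3.53 with IL-2, against 36.4 ± 29.5 in controls) and Eomes (7.28 ± 13.1 with IL-2, against 58.8 ± 14.8 in controls), passed the filter on reads through the control libraries, so their difference is a description. The sums thus rest on a few members of each list. The part of other cells in the differences was not tested, and in bulk RNA fewer cells of a type cannot be told apart from less RNA per cell.

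Per kilobase of exon (GENCODE M21, not the authors' annotation), the 6 phosphodiesterase genes together had 128 ± 6.73 normalised reads with IL-2, against 216 ± 18.6 in controls, with no overlap (120.5 to 137 with IL-2, 191 to 230.3 in controls). A share of this sum depends on all 6 genes, of which 4 fell. Pde8a, which did not pass the test and stood at 50.2 ± 10.6 reads per kilobase with IL-2, against 36.2 ± 3.35 in controls, held 39.1% ± 6.98 of it with IL-2, against 16.9% ± 1.95 in controls. Pde4b held 27.8% ± 4.34 with IL-2, against 37.2% ± 4.12 in controls, Pde4d 14.2% ± 4.63 and 21.5% ± 2.65, and Pde7a 12.5% ± 4.41 and 18.1% ± 1.66. These shares are descriptions with no test.

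**Figure D3:**
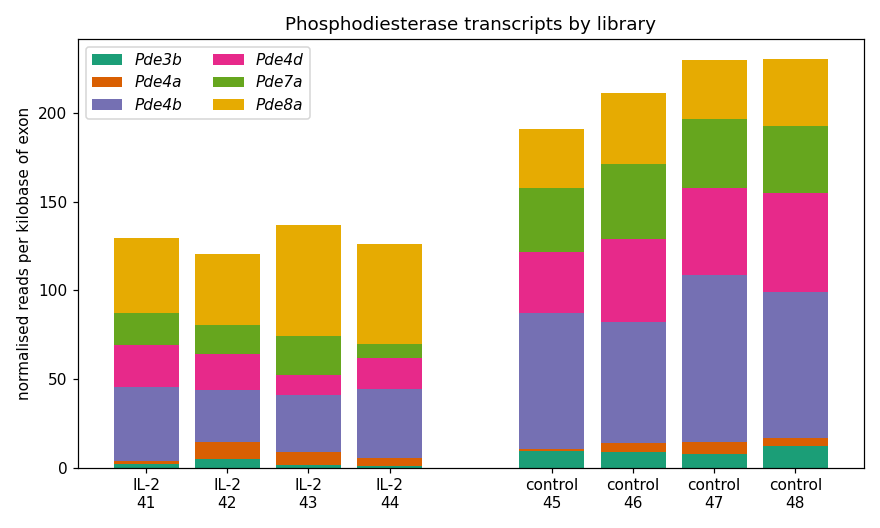
Normalised reads per kilobase of exon (vertical axis, from 0) of the 6 phosphodiesterase genes, stacked for each IL-2 library (left) and each control library (right). The IL-2 stacks reach 120.5 to 137 and the control stacks 191 to 230.3, and the Pde8a segment is the largest in each IL-2 stack.

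Ratios between genes of the same library asked whether relatives differed in their response. The pairs, 4 in all, were chosen after the values were seen. The log2 ratio of Pde4b to Pde8a was 0.60 ± 0.37 with IL-2, against 2.20 ± 0.30 in controls (exact permutation p = 0.0286, 0.0571 adjusted over the 4 ratios). It was lower in 4 of 4 IL-2 libraries than in any control. Pde4b lay wholly below the controls and Pde8a wholly above them, so this ratio had to separate the groups. Its p-value was fixed by those values and is not read as a result. The ratio of Pde4b to Pde4d was 1.28 ± 0.44 and 1.08 ± 0.30 (exact permutation p = 0.571), and that of Pde4b to Pde4a was 3.15 ± 1.11 and 4.63 ± 0.83 (exact permutation p = 0.114, and 0.0286 without IL-2 library 41). A different response of Pde4b from that of Pde4d or Pde4a was thus not shown, which does not mean that they responded alike. The ratio of Pde4d to Pde4a was not tested.

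By a fixed rule, the 5 tested genes whose deposited values followed Pde3b most closely over the 8 libraries were Cd99l2, Fam169b, Gprasp1, Nup153 and Cd74, with Pearson correlations of 0.988, 0.976, 0.975, 0.971 and 0.969. The 8 points share the split into IL-2 and control, and all 5 genes were lower with IL-2 in 4 of 4 libraries. Cd99l2 had 143 ± 30.7 reads with IL-2, against 247 ± 15.8 in controls, and in IL-2 library 42, where Pde3b was the highest of its group, all 5 were also highest. The genes were chosen for following Pde3b, so their lower values with IL-2 and their peak in library 42 restate that choice. Cd99l2 and Cd74 also passed the main filter through the control libraries alone.

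Adcy7 encodes a cyclase that is prominent in lymphocytes. Its normalised reads were 1704, 1802, 1762 and 1672 with IL-2 and 1889, 1788, 1941 and 1790.2 in controls. The groups overlapped narrowly, through IL-2 library 42. The means of 1735 ± 58.3 with IL-2, against 1852 ± 75.7 in controls did not differ past the threshold (limma difference -0.07 on the deposited scale, 95% interval -0.17 to 0.04, adjusted p = 0.319).

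Of 9 other cyclase genes, 3 had enough reads for the fit on log2 reads and 1 fell, where 9.07% of all genes fell. That was Adcy6, a cyclase inhibited by calcium, named here after its values were seen. It had 124, 3.43, 0 and 46.7 normalised reads with IL-2, against 145, 114, 187 and 135 in controls. IL-2 library 41 lay among the controls and the other 3 below them (limma adjusted p = 0.0357). Adcy6 passed the filter on reads through 4 control and 2 IL-2 libraries, so the filter leaned on the group where it was high. The call was lost without IL-2 libraries 42 or 43 or any 1 control library (adjusted p = 0.0624 to 0.0947).

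Upstream of the cyclases, 3 of 6 G protein alpha subunit genes were tested in the main fit. Gnai2, whose product inhibits cyclases, rose, where 16.8% of all genes did. It had 5018 ± 151 normalised reads with IL-2, against 4054 ± 362 in controls, a ratio of means of 1.24 (limma difference 0.27 on the deposited scale, adjusted p = 0.00518), with groups that did not overlap. Gnas, which encodes the stimulatory subunit, stood at 1698 ± 221 with IL-2, against 1868 ± 232 in controls (limma adjusted p = 0.375).

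Of 14 receptors coupled to the stimulatory G protein, 3 reached the main fit and 0 passed by limma (0 at an unadjusted p of at most 0.05), where 31.4% of all genes passed. Adora2a, an adenosine receptor gene, stood at 222 ± 25.5 reads with IL-2, against 219 ± 20.9 in controls (limma adjusted p = 0.951), and Ptger4, for prostaglandin E2, at 561 ± 51.1 and 593 ± 75.2 (limma adjusted p = 0.651). On log2 reads 8 of the 14 receptor genes were tested, 1 fell and 0 rose, where 9.07% of all genes fell and 10.9% rose. The one that fell was Ptger2, another prostaglandin E2 receptor gene, named after its values were seen, with 47.5, 39.5, 30.1 and 25.4 reads with IL-2 and 85.3, 88.1, 60.6 and 104.9 in controls (adjusted p = 0.0136).

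Prkaca, the alpha catalytic subunit of PKA, showed no difference past the threshold. Its normalised reads were 253, 265, 213 and 222 with IL-2, against 179, 224, 260.4 and 270.5 in controls. Control library 45 was the lowest and control library 48 the highest of the 8, so the IL-2 libraries lay within the control range. The limma difference on the deposited scale was 0.01, with a 95% interval of -0.12 to 0.14 (adjusted p = 0.898).

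Among the other PKA genes, 2 of 8 were tested in the main fit and 1 fell, where 14.6% of all genes fell. Prkacb, the beta catalytic subunit, had 1137 ± 87.9 reads with IL-2, against 1434 ± 167 in controls, 1.26-fold lower with no overlap (limma adjusted p = 0.0214). The call was lost without IL-2 libraries 41 or 43 or control library 46 (adjusted p = 0.0525, 0.066 and 0.0653). Prkar1a, the widely expressed regulatory subunit, stood at 2586 ± 168 with IL-2, against 2608 ± 345 in controls (limma adjusted p = 0.967). Prkar1b, a second type I regulatory subunit best known from the brain, was tested only on log2 reads and was named after its values were seen. It had 98.7, 124, 92.7 and 74.9 reads with IL-2, against 12.1, 15.99, 12.8 and 1.06 in controls (limma adjusted p = 4.79e-04), a mean 9.29-fold higher with IL-2. Its lowest IL-2 library lay well above its highest control.

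A-kinase anchoring proteins tether PKA to sites in the cell. Of 11 genes, 6 were tested in the main fit, 1 rose and 2 fell, where 16.8% of all genes rose and 14.6% fell. Akap13 rose, with 11289 ± 1006 reads with IL-2, against 8389 ± 158 in controls (limma adjusted p = 5.56e-04). Akap8l fell, with 330.4 ± 27.5 and 469.6 ± 46.7 (limma adjusted p = 0.0073). Akap9 also fell, by less, with 2836 ± 35.7 and 3253 ± 88.3 (limma adjusted p = 0.0206, and 0.0538 without IL-2 library 43 and 0.0611 without control library 47). For these 3 genes the groups did not overlap. Akap12 fell on log2 reads, where it was named after its values were seen, with 112 ± 19.7 and 237 ± 34.3 reads (adjusted p = 0.00194).

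Cyclic AMP also directly activates the Rap1 exchange factors Epac1 and Epac2, encoded by Rapgef3 and Rapgef4. Rapgef4 had 5.21, 0, 48.8 and 19.5 normalised reads with IL-2, against 0, 90.7, 35.7 and 43.1 in controls (limma difference on log2 reads -0.95, adjusted p = 0.515). Rapgef3 had 46.4, 60.4, 25.2 and 53.3 reads with IL-2, against 0, 30.6, 19.1 and 0 in controls. Both were named after their values were seen. Rapgef3 passed the filter on reads through 4 IL-2 and 2 control libraries, so the filter leaned on the group where it was high. The groups of Rapgef3 overlapped, and its rise on log2 reads (adjusted p = 0.0417) was lost without IL-2 libraries 41, 42 or 44 or control libraries 45 or 48 (adjusted p = 0.0856 to 0.108). The Rap1 genes Rap1a and Rap1b were tested in the main fit and 0 passed by limma (0 at an unadjusted p of at most 0.05), where 31.4% of all genes passed.

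Creb1 encodes CREB, the transcription factor that PKA phosphorylates. Its normalised reads were 1344, 1209, 1500.3 and 1721 with IL-2, against 1987, 1991, 1519 and 1913 in controls. Control library 47 stood apart from the other 3 controls and lay within the IL-2 range. Creb1 averaged 1443 ± 219.8 with IL-2, against 1853 ± 225 in controls, 1.28-fold lower (limma difference -0.26 ± 0.08 SE on the deposited scale, adjusted p = 0.0334). The call was lost with Ddx3y as a covariate (adjusted p = 0.0613). It was also lost without IL-2 libraries 41, 42 or 43 or control libraries 45, 46 or 48 (adjusted p = 0.0528 to 0.0917), and kept without IL-2 library 44 (0.00965) or control library 47 (0.0109).

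Crem encodes CREM, a relative of CREB whose products include activators and the inducible repressor ICER, made from an internal promoter; gene-level values do not separate them. It had 240.0, 192, 284 and 204 normalised reads with IL-2, against 131, 152, 171 and 157 in controls. No IL-2 library fell within the control range of 131 to 171. The means were 230.0 ± 41.5 with IL-2, against 153 ± 16.6 in controls; the mean was 1.51-fold higher with IL-2 (limma difference on log2 reads 0.57 ± 0.17 SE, adjusted p = 0.0365). Crem was too low for the main filter. The call was lost without IL-2 libraries 41 or 43 or control libraries 45, 46 or 48 (adjusted p = 0.0647 to 0.107), and on the deposited scale without a filter (adjusted p = 0.057).

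The log2 ratio of Crem to Creb1 was -2.63 ± 0.30 with IL-2, against -3.56 ± 0.32 in controls, higher in 4 of 4 IL-2 libraries than in any control (exact permutation p = 0.0286, 0.0571 adjusted over the 4 ratios). Leaving out any library but IL-2 library 44 or control library 47 gave an exact permutation p = 0.0571. The groups stayed apart whichever library was left out. Fewer splits are possible then, so the larger p-value does not show a loss of separation.

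Of 9 genes for the relative ATF1, the CRTC coactivators, the acetyltransferases CBP and p300 and the SIK kinases that hold CRTC proteins in the cytoplasm, 8 were tested in the main fit, 0 rose and 1 fell, where 16.8% of all genes rose and 14.6% fell. The gene that fell was Sik3, with 259 ± 16.9 reads with IL-2, against 360.5 ± 40.8 in controls (limma adjusted p = 0.0171, and 0.0549 without control library 47). Crtc2 stood at 324 ± 54.1 and 297 ± 69.0 (limma adjusted p = 0.616), and Crebbp at 3801 ± 307 and 4408 ± 524 (limma adjusted p = 0.0921).

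Among 17 genes known as CREB targets, 7 were tested in the main fit, 1 rose and 0 fell, where 16.8% of all genes rose and 14.6% fell. Fos, an immediate early gene, had 351, 1134, 818 and 495 normalised reads with IL-2, against 49.0, 100.3, 408 and 188 in controls (limma difference 0.83 on the deposited scale, adjusted p = 0.00669, and 0.0538 with robust fitting). IL-2 library 42 was the highest and control library 47 overlapped the IL-2 range. Fos met the main filter through 4 IL-2 libraries and 1 control library, so the filter leaned on the group where it was high. It met the filter on reads in 4 IL-2 and 4 control libraries, with a difference of 2.13 on log2 reads (limma adjusted p = 0.0129). On log2 reads 13 of the 17 targets were tested, 2 rose and 0 fell, where 10.9% of all genes rose and 9.07% fell. The second that rose was Fosb, named after its values were seen, with 364 ± 201 reads with IL-2, against 55.4 ± 33.8 in controls (limma adjusted p = 0.0018). The targets Nr4a1, Per1, Dusp1 and Irs2 had main adjusted p-values of 0.155, 0.689, 0.488 and 0.2704. The median difference of the 7 was 0.15 on the deposited scale, where the median of all tested genes was -0.01. A shift of these genes as a set was not tested. Many other signals also drive these genes.

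**Figure D4:**
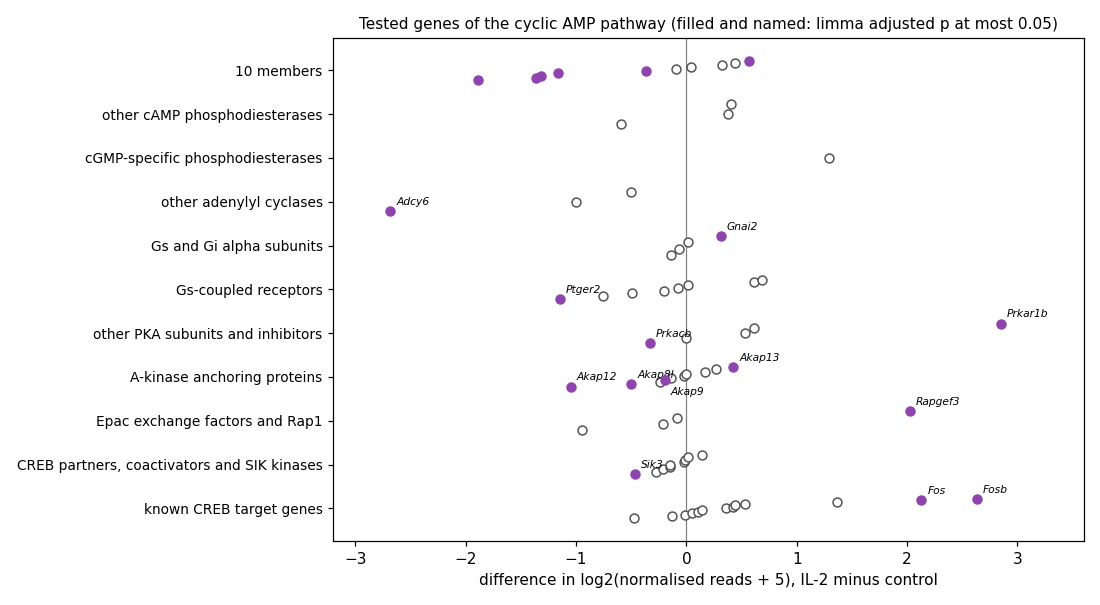
Difference in log2(normalised reads + 5), IL-2 minus control (horizontal axis), for each tested gene of the 10 members and of 10 lists of the pathway; filled points have a limma adjusted p of at most 0.05 and are named outside the first row. Prkar1b at 2.85 and Adcy6 at -2.69 lie farthest from 0.

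Over the 10 pathway lists, without the 10 members, 33 genes were tested in the main fit, of which 3 rose and 4 fell, where 31.4% of all genes passed in either direction. The 3 that rose include Fos, which met the main filter through the IL-2 libraries. On log2 reads 60 were tested and 13 passed, 6 higher and 7 lower, where 19.9% of all genes passed. The 13 include Adcy6 and Rapgef3, which reached the filter on reads mainly through the group where they were high.

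Levels of different genes were compared only per kilobase of exon. In controls the order was Adcy7 (298 ± 12.2 normalised reads per kilobase), Creb1 (211 ± 25.7), Prkaca (93.8 ± 16.7), Pde4b (80.2 ± 11.1), Pde4d (46.6 ± 9.07), Pde7a (38.8 ± 2.59), Pde8a (36.2 ± 3.35), Crem (30.8 ± 3.35), Pde3b (9.50 ± 1.92) and Pde4a (4.40 ± 2.39). Prkaca and Pde4b, and the run from Pde4d through Pde7a and Pde8a to Crem, were neighbours whose SDs overlapped. With IL-2, the means of Pde8a (50.2 ± 10.6) and Crem (46.3 ± 8.36) lay above those of Pde4b (35.6 ± 5.62), Pde4d (18.1 ± 5.51) and Pde7a (16.1 ± 6.16). The SDs of Pde8a and Crem overlapped that of Pde4b.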

How the data were processed

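Strand-specific total RNA libraries of sorted splenic Tregs were made with a low-input kit, per the labels' protocols. The deposited table holds log2 variance-stabilised values made by the authors, 1 column per library. The submitters' processing notes list Salmon, DESeq2 and GRCm39 with no order or settings, and the annotation and any filter were not stated. Salmon divides reads among transcripts by estimation, so close relatives can share reads.

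Normalised reads were recovered by inverting the variance-stabilising formula, with its scale set by the table's minimum (8.69, standing for 0 reads). Of the 5 commonest values above it in each library, 40 of 40 were whole multiples of 1 read within 0.001. Salmon's counts are estimates and the deposited unit is a log value, so no count test was run. Counting error limits genes with few reads.

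Main test: limma 3.58.1 in R 4.3.3 (lmFit, eBayes with trend) on the deposited values, without covariates, Benjamini-Hochberg threshold 0.05. A second limma fit used log2 of reads plus 5. Exact permutation tests were two-sided over 70 splits, or over fewer where a library was left out. The fits were tested on simulated data. Alternatives were other filters, quantile normalization, median centring, other variance models, a pseudocount of 1 and leaving out each library; Ddx3y as a covariate and the alternatives on log2 reads beyond the 2 pseudocounts were added after seeing the data.

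The 10 members, the lists and the rule for named genes (all members; up to 4 genes of each list past the main threshold; the 5 genes most like Pde3b, without predicted genes) were chosen with earlier results of these data known. Figures used Python 3.11.15 and matplotlib 3.10.9.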

Additional observations from a re-analysis of the deposited data

Results flagged for a closer look

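In a group of 4, a library was marked when its gap to the nearest other library exceeded Dixon's 95% critical share of the group's range, which chance gives in about 5% of groups; 70 groups were examined and 3 were marked. Creb1 had 1519 normalised reads in control library 47, where the other controls had 1913 to 1991. Without that library the limma adjusted p of Creb1 was 0.0109. Eomes, a marker of CD8 T and NK cells, had 26.9 reads in IL-2 library 43, where the other IL-2 libraries had 0 to 2.22. Klrb1c, an NK cell marker, had 80.4 reads in control library 45, where the other controls had 18.3 to 25.6.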

How the results depend on the processing

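On log2 reads the falls of Pde3b, Pde4b, Pde4d and Pde7a passed under every alternative run, with adjusted p-values of at most 0.0186, 8.11e-04, 0.00769 and 0.0153. Their tests on the deposited scale with the main filter are not counted here for Pde4d and Pde7a, which passed it through the controls; the stricter filter removed all 4. Pde3b reached the filter on reads mainly through the control libraries, where it was high. Creb1 passed in 13 of 29 alternatives and Crem in 6 of 12. With the stricter filter 737 genes passed, fewer being tested (1519), and 1 of the 2 members left passed (Creb1). Leaving out single libraries gave 1378 to 1535 genes, 3 to 4 members in the main fit and 4 to 6 members on log2 reads. Of the pathway genes, 7 passed in the main fit, 4 with the stricter filter, 14 without a filter, and 13 and 11 on log2 reads with pseudocounts of 5 and 1; leaving out single libraries gave 5 to 9 in the main fit and 9 to 12 on log2 reads. Akap9 (adjusted p = 0.0503 with Ddx3y as a covariate on log2 reads), Adcy6 and Rapgef3 (0.0607 and 0.0665 with a pseudocount of 1) were lost under those settings. On log2 reads Akap9 was also lost without IL-2 libraries 41, 42 or 43 or any 1 control library (limma adjusted p = 0.0512 to 0.0833). No paired analysis was possible because the groups share no replicate numbers. Depth limits Pde3b and Pde4a most, at under 100 reads per library.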

Other observations

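Among 10 other phosphodiesterase genes whose enzymes act on cyclic AMP, 2 were tested in the main fit and 0 passed by limma (0 at an unadjusted p of at most 0.05), where 31.4% of all genes passed. On log2 reads 3 were tested and 0 passed (1 unadjusted), where 19.9% of all genes passed. Pde1b, whose enzyme is activated by calmodulin, stood at 310.5 ± 53.2 normalised reads with IL-2, against 239 ± 42.7 in controls (limma adjusted p = 0.124), and its groups did not overlap. Pde2a, whose enzyme is stimulated by cyclic GMP, had 173, 291, 120.4 and 368 reads with IL-2 and 276, 274, 95.01 and 97.1 in controls. Its groups overlapped. Pde8b and Pde10a were at 0 reads in every library. Of the genes specific for cyclic GMP, Pde5a alone reached the filter on reads, with 20.2, 26.3, 34.7 and 43.4 reads with IL-2 and 3.68, 1.86, 13.8 and 32.9 in controls (limma adjusted p = 0.114).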
